A study of Homo sapiens with 6 samples.

Results

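Cholesterol synthesis and its control by the sterol regulatory element-binding proteins (SREBPs) were followed through 35 genes in bulk RNA-sequencing libraries of U-2 OS, an established line of human osteosarcoma cells. The genes were taken by symbol from a list of pathway members that was drawn up with earlier results of these data known, although the rule itself uses no measured value, and all 35 were among the 21447 genes in the files and among the 14323 genes that passed the filter on low counts. They comprised 7 enzymes of the mevalonate steps, 11 enzymes that turn the farnesyl units into squalene and sterols, 5 genes of SREBP control, 6 genes of sterol transport and esterification, and 6 genes of fatty acid synthesis that SREBPs also drive. The study had 2 groups of 3 libraries each: cells left untreated, and cells that received 4 Gy of ionizing radiation (IR) and were collected after 24 h. The question was which genes change their expression after radiation damage. Both groups were the same cell line grown in the same serum-containing medium, so a serum supply of cholesterol was common to them. The study describes the samples of a group as independent but not how they were cultured, so the P values measure the spread between these libraries.

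Animal cells build cholesterol from acetyl-CoA through mevalonate, isoprenoid units, squalene and lanosterol. SREBPs are transcription factors made as precursors in the endoplasmic reticulum membrane, where SCAP escorts them and INSIG proteins hold them back when sterols are plentiful. When sterols run low the precursors move to the Golgi, are cut, and enter the nucleus to switch on genes of sterol and fatty acid synthesis. The libraries measure RNA only, so the cutting and nuclear entry of SREBPs were not observed here.

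Stretches upstream of 5 of these genes are shown first, since SREBPs and their partner NF-Y act through letters in the promoters of many of their targets; the 5 were chosen after their values were seen. The RefSeq promoter table (GRCh38.p14, 250 bases before to 50 bases after each annotated start) matched 30 of the 35 genes. ACAT2, FDFT1, SQLE, ABCG1 and FASN had no entry. The stretches run 5′ to 3′ on the strand of the gene, from 230 to 11 bases before the start, and cover 220 bases each. Capitals mark CCAAT, the core of the NF-Y binding motif, in either orientation (CCAAT or ATTGG), and in SREBF2 also the classical sterol regulatory element letters TCACNCCAC. HSD17B7 (chr1:162790472-162790691, plus strand), MSMO1 (chr4:165327439-165327658, plus strand) and EBP (chrX:48521578-48521797, plus strand) are sterol enzymes that were higher after IR. SREBF2 (chr22:41832875-41833094, plus strand) encodes the SREBP that favours sterol genes and was not called. SCD (chr10:100347003-100347222, plus strand) encodes a fatty acid desaturase and was the member called lower.
HSD17B7: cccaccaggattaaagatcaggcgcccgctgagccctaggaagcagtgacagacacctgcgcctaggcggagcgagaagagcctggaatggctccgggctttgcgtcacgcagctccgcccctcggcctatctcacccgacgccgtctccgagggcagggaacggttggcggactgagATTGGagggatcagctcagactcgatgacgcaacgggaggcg
MSMO1: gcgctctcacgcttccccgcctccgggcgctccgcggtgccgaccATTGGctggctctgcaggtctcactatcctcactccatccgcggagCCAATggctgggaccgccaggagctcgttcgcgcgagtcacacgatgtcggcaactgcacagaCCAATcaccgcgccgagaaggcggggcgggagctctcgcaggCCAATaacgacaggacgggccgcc
EBP: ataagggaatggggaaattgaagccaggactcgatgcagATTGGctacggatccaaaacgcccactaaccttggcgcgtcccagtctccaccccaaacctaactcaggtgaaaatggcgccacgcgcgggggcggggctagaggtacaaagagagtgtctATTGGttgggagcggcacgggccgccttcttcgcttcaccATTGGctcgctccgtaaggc
SREBF2: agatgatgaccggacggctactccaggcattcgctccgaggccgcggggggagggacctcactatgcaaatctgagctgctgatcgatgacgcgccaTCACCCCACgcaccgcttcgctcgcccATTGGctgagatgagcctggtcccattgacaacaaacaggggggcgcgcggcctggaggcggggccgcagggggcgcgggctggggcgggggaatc
SCD: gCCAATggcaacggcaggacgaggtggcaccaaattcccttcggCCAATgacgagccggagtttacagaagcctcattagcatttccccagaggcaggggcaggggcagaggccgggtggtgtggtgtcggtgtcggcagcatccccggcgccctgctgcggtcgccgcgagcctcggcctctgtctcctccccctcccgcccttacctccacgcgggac

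Among these stretches MSMO1 carried 4 CCAAT matches, at 185, 139, 76 and 34 bases before its start. EBP had 3, at 191, 70 and 30 bases. HSD17B7 had 1, at 52 bases, and SCD had 2, at 229 and 186 bases. SREBF2 carried the sterol regulatory element letters 133 bases before its start and a CCAAT match at 106 bases.

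Over the whole 300-base windows and both strands, CCAAT was found in 21 of the 30 matched genes (70.0%), against 34.6% of 35116 promoters and 39.7% of 27305 genes in the table. It was present in 13 of 15 matched enzymes. Of the 15 matched genes that were called higher after IR, 14 held CCAAT, and of the other 15, 7 did. Most of those called higher were enzymes, so a split by call and a split by role cannot be told apart. The shares over the promoter table were not limited to the 14323 genes tested here. TCACNCCAC was found in SREBF2 alone among the 30, and in 1.13% of all promoters and 1.39% of all genes in the table. The GC box letters GGGCGG, a motif of Sp1-type factors, were in 29 of 30 genes, against 45.0% of promoters and 48.3% of genes. The motifs were searched separately, so matches of different motifs may share bases. These matches describe exact letters in a fixed window and do not show binding. Likewise, a missing match does not show that binding is absent.

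The libraries held between 18573309 and 45308792 estimated counts, the largest being IR replicate 3. This library also stood apart in the chi-square statistic per gene between replicates. The statistic was 29.1 and 32.2 against IR replicates 1 and 2, but 3.45 to 9.16 among all other replicate pairs. It used counts not reduced to a common depth, so depth and poorer agreement cannot be told apart in it. The counts of members called and the fold changes of several genes are given with and without IR replicate 3. CDKN1A, which encodes the p53-induced CDK inhibitor p21, rose from 120–124 to 322–390 CPM (counts scaled to library size), by 1.53 on the log2 scale, and MDM2 rose by 0.60. The osteosarcoma cell identity was partly seen in the RNA. SPARC, COL1A1 and VIM were abundant, whereas COL1A2 was at 0.98–2.14 CPM and ALPL was low, at 1.70–2.14 CPM in untreated and 3.05–4.95 CPM in IR libraries, and was called higher by 1.09. RUNX2 was at 11.3–16.1 CPM and was called lower after IR, with a log2 fold change of -0.36. Among markers of other cell types EPCAM was at 8.55–10.6 CPM and PTPRC at 0.75–1.76 CPM. PECAM1, CDH5 and ADIPOQ stayed under the filter, and ALB was at 0 in every library.

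Of the 35 genes, 18 were higher after IR in edgeR's quasi-likelihood test (Benjamini-Hochberg adjusted P under 0.05 over 14323 genes), 1 was lower and 16 were not called. Across all genes tested 15.5% were called higher and 14.5% lower. The median log2 fold change of the 35 genes was 0.24, against 0.01 for all genes tested, and 29 of them lay above 0. The changes were small in size, and 4 of the 35 genes were called higher with a log2 fold change of at least 0.5. That share lay above the 5.98% of all genes tested that were called higher at that size. All 3 IR libraries lay above all 3 untreated libraries for 19 genes and below them for 3, while 13 overlapped; over all genes 23.8% lay wholly above and 23.3% wholly below. Without IR replicate 3, 16 members were called higher and 1 lower, and their median was 0.20. The number called higher was 11 without untreated replicate 1 and 10 without untreated replicate 2. In a bulk library, a change in the share of cells that express a gene and a change in RNA per cell cannot be told apart.

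**Figure D1:**
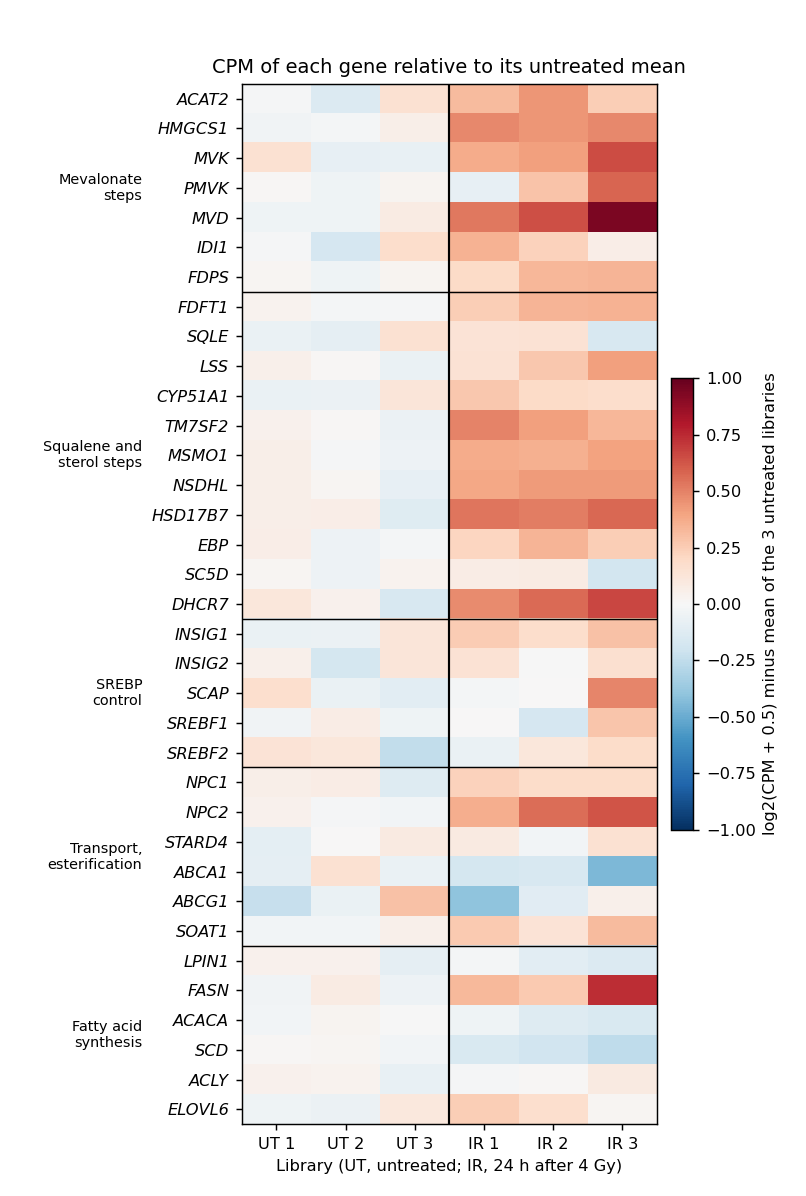
Difference of log2(CPM + 0.5) from the mean of the 3 untreated libraries for each of the 35 genes (rows, grouped by role) in each of the 6 libraries (columns); red is above and blue below the untreated mean. The 18 enzymes of the upper blocks are mostly red in all 3 IR columns, with SQLE and SC5D pale, whereas the SREBP control and fatty acid blocks are mixed.

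The enzymes of the mevalonate and sterol steps held most of the calls. Of these 18 genes 14 were higher, none was lower, and their median log2 fold change was 0.32. Taken library by library against the untreated mean, the median of the 18 was 0.33 in IR replicate 1, 0.35 in IR replicate 2 and 0.37 in IR replicate 3, with 17, 18 and 16 of the enzymes above the untreated mean. Each untreated library set against the other two gave medians between -0.06 and 0.04. The median rise of the enzymes was of similar size in the 3 IR libraries, including the one that stood apart.

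The 7 enzymes of the mevalonate steps together made up 839.5, 816 and 882 CPM in the untreated libraries and 1101, 1131 and 1165 CPM in the IR libraries. HMGCS1 (chr5:43287470-43313512, minus strand), the cytosolic synthase that makes HMG-CoA for this pathway and a textbook SREBP target, was measured at 386, 389.8 and 412 CPM in untreated and 552, 538 and 552 CPM in IR libraries. The IR values formed a tight cluster above all untreated values. The log2 fold change was 0.47 ± 0.06 (SE, n = 3 per group; edgeR adjusted P = 0.00082).

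MVD (chr16:88651935-88663161, minus strand) encodes the decarboxylase that makes isopentenyl diphosphate and had the largest log2 fold change of the 35 genes in the fit of all 6 libraries with no correction, though not with the GC trend removed. It was measured at 64.7, 64.5 and 70.4 CPM in untreated and 96.1, 104 and 128 CPM in IR libraries. All IR libraries were above all untreated ones, with IR replicate 3 the highest. This gave a log2 fold change of 0.72 ± 0.10 (SE, n = 3 per group; edgeR adjusted P = 0.0013), 0.58 without IR replicate 3, and 0.36 with the GC trend removed, where HSD17B7 (0.63), HMGCS1 (0.60), MSMO1 (0.58) and others were above it.

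Of the other mevalonate enzymes 3 were called higher. They were MVK, the mevalonate kinase (0.49), ACAT2, the thiolase that starts the pathway (0.33), and FDPS, the farnesyl diphosphate synthase (0.29). MVK had 0.39 without IR replicate 3 and 0.23 with the GC trend removed. PMVK, the second kinase, had a log2 fold change of 0.31 with a 95% confidence interval of -0.01 to 0.63. Its value was 0.10 without IR replicate 3 and 0.45 without IR replicate 1, where it was called (adjusted P = 0.014) and 6 of the 7 mevalonate enzymes were higher. IDI1, the isomerase, had 0.21 (-0.02 to 0.44), and in both genes the groups overlapped. ACAT2 lost its call when untreated replicate 1, untreated replicate 2 or IR replicate 2 was left out, with log2 fold changes of 0.32, 0.27 and 0.28. FDPS lost it without untreated replicate 2 (0.27; adjusted P = 0.0504).

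The 11 enzymes from squalene onwards summed to 1463, 1416 and 1459 CPM in the untreated libraries and 1713, 1772 and 1724 CPM in the IR libraries. Of these 11, 9 were called higher. DHCR7 (chr11:71428193-71452868, minus strand), which reduces the last precursor of cholesterol in one branch of the pathway, was at 147, 141 and 122 CPM in untreated and 189, 202 and 216 CPM in IR libraries. The lowest IR library was well above the highest untreated one. The log2 fold change was 0.57 ± 0.08 (SE, n = 3 per group; edgeR adjusted P = 0.0014).

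HSD17B7 (chr1:162790702-162812823, plus strand), whose promoter with a single CCAAT match is printed above, encodes a ketoreductase of sterol C4 demethylation. Its values were 32.8, 33.1 and 29.0 CPM in untreated and 45.9, 45.2 and 47.2 CPM in IR libraries. The groups were apart and the IR libraries differed little among themselves. edgeR estimated a log2 fold change of 0.54 ± 0.08 (SE, n = 3 per group; edgeR adjusted P = 0.0012). The other 2 enzymes of the same C4 demethylation, NSDHL (0.42) and MSMO1 (0.38), also rose, so all 3 of these partners were called higher.

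Smaller rises were called in TM7SF2, a sterol reductase (0.44), FDFT1, the squalene synthase (0.31), LSS, which closes the lanosterol rings (0.28), EBP, a sterol isomerase (0.27), and CYP51A1, the lanosterol demethylase (0.21; adjusted P = 0.047). TM7SF2 was measured at only 6.35–9.58 CPM. Its exons overlap those of VPS51 on the same strand, and CYP51A1 and EBP each overlap an unnamed gene on the same strand. The counts of these 3 genes are uncertain to that extent. Exons of ACAT2, MVK, SREBF1, NPC1 and NPC2 overlap those of genes on the opposite strand. The study's methods do not state whether reads were assigned by strand. TM7SF2 kept its call only without IR replicate 3 among the 6 fits that each left out a library, with log2 fold changes of 0.38 to 0.48. LSS lost its call in 4 and CYP51A1 in 4 of those 6 fits, while EBP lost it in 2. Without IR replicate 3 the log2 fold change of LSS was 0.20.

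SQLE and SC5D were the 2 sterol enzymes that were not called. SQLE encodes squalene epoxidase, a rate-controlling oxygen-dependent step and a known SREBP target. It was measured at 327, 321 and 379.6 CPM in untreated and 376, 377 and 305 CPM in IR libraries. IR replicate 3 was the lowest of all 6 libraries, while IR replicates 1 and 2 lay within the untreated range. The log2 fold change was 0.04 (95% confidence interval -0.17 to 0.26; edgeR adjusted P = 0.77), and 0.13 without IR replicate 3. SC5D, the sterol desaturase, had -0.01 (-0.19 to 0.18).

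**Figure D2:**
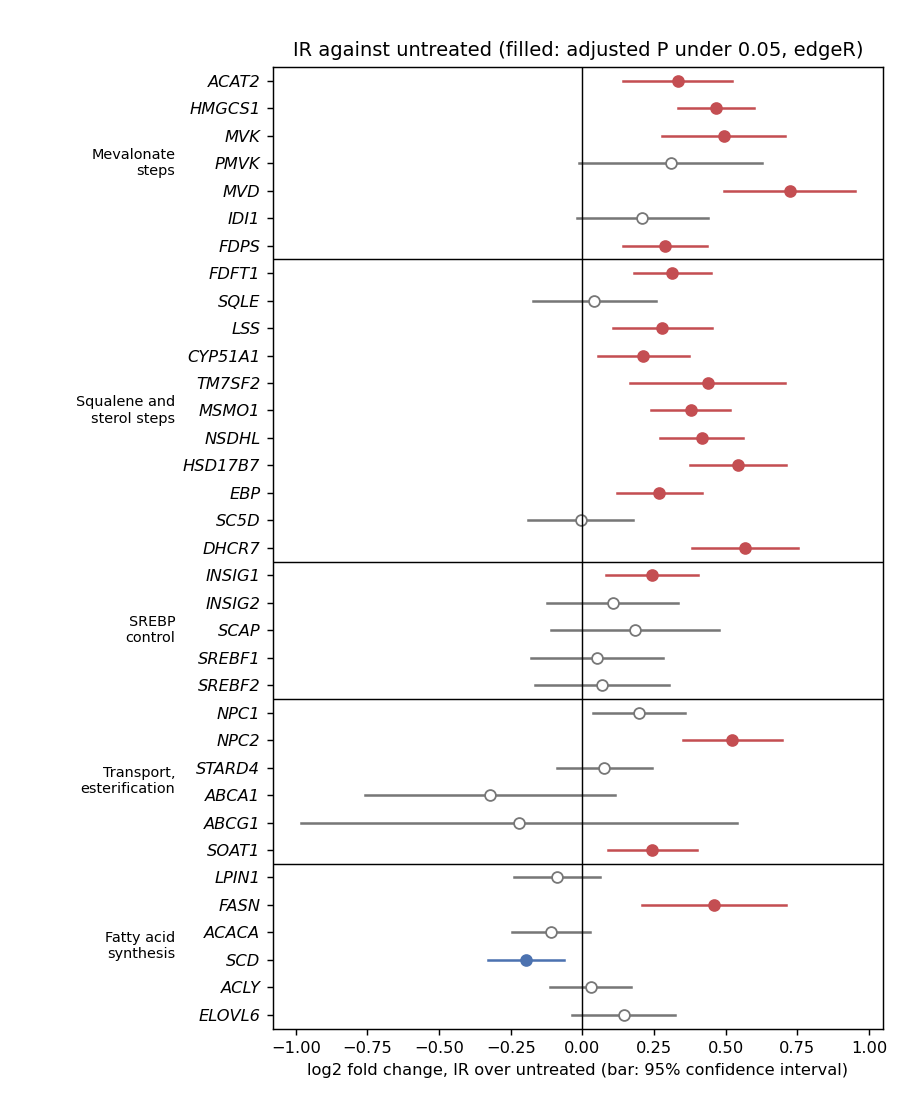
Log2 fold change of IR over untreated (horizontal axis) for the 35 genes by role; points are edgeR estimates from 3 libraries per group, bars are 95% confidence intervals, and filled points passed an adjusted P of 0.05. The intervals of 14 of the 18 enzymes lie above 0 and are filled, and SCD is the filled point below 0.

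Of the 5 genes that control SREBPs 1 was called higher and none lower, beside 15.5% higher and 14.5% lower among all genes tested. Their median log2 fold change was 0.11. With the GC trend removed 2 were called higher and 1 lower, beside 11.7% and 12.6% of all genes. INSIG1, itself an SREBP target that retains SCAP in the endoplasmic reticulum, was at 74.6, 75.0 and 84.6 CPM in untreated and 92.9, 88.2 and 95.6 CPM in IR libraries. The gap between the highest untreated and the lowest IR library was small. This gave a log2 fold change of 0.24 ± 0.07 (SE, n = 3 per group; edgeR adjusted P = 0.030). The call was kept when untreated replicate 3 was left out and lost when any other single library was left out, with log2 fold changes of 0.20 to 0.30.

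INSIG2, the related retention protein, was at 16.5, 14.1 and 17.4 CPM in untreated and 17.7, 16.0 and 17.9 CPM in IR libraries. The groups overlapped, with a log2 fold change of 0.11 (95% confidence interval -0.12 to 0.33). SCAP, the escort, was at 92.2, 78.6 and 76.5 CPM in untreated and 81.3, 82.5 and 116 CPM in IR libraries. Only IR replicate 3 exceeded the untreated range, and the log2 fold change of 0.18 (-0.11 to 0.48) became -0.02 without that library.

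SREBF1, which encodes the SREBP-1 forms, was at 75.3, 81.4 and 75.1 CPM in untreated and 77.3, 68.7 and 93.5 CPM in IR libraries. SREBF2 was at 252, 248 and 193 CPM in untreated and 219, 248 and 261 CPM in IR libraries. In both genes the groups overlapped, IR replicate 3 was the highest IR library, and the untreated libraries of SREBF2 spread more widely than the IR libraries. The log2 fold change was 0.05 (95% confidence interval -0.18 to 0.28) for SREBF1 and 0.07 (-0.17 to 0.30) for SREBF2. Without IR replicate 3 these became -0.09 and 0.00. The intervals still allow changes of the size called in INSIG1.

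Of the 6 genes of sterol transport and esterification, 2 were called higher, beside 15.5% of all genes tested. NPC2 (chr14:74476192-74494177, minus strand) encodes the soluble lysosomal protein that hands cholesterol to NPC1. It was at 104, 99.5 and 98.5 CPM in untreated and 129, 148 and 156 CPM in IR libraries. The 3 untreated libraries lay close together and all IR libraries were above them. edgeR estimated a log2 fold change of 0.52 ± 0.08 (SE, n = 3 per group; edgeR adjusted P = 0.0015). SOAT1, which esterifies cholesterol for storage, rose by 0.24 (adjusted P = 0.025) but lost its call without untreated replicate 1, untreated replicate 2, IR replicate 1 or IR replicate 3, with log2 fold changes of 0.19 to 0.23.

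NPC1, the membrane partner of NPC2, had all IR libraries above the untreated ones and a log2 fold change of 0.20 that missed the threshold (adjusted P = 0.061). STARD4, a cytosolic sterol carrier, had 0.08 (95% confidence interval -0.09 to 0.24). ABCA1 exports cholesterol from cells and is driven by the oxysterol receptors LXR. It was at 3.13, 3.79 and 3.18 CPM in untreated and 2.90, 2.94 and 2.32 CPM in IR libraries. All IR libraries were below the untreated ones, but the level was low and the log2 fold change of -0.32 (-0.76 to 0.11) was not called. ABCG1, a second LXR-driven exporter, was at 0.53–1.17 CPM, with -0.22 (-0.98 to 0.54).

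The genes of fatty acid synthesis moved in both directions, with 1 called higher and 1 lower of 6 and a median log2 fold change of -0.03. Among all genes tested 15.5% were called higher and 14.5% lower. FASN, the fatty acid synthase, was at 338, 367 and 335 CPM in untreated and 434, 416 and 578 CPM in IR libraries. IR replicate 3 stood far above the other 2 IR libraries, and all 3 were above the untreated ones. The log2 fold change was 0.46 ± 0.11 (SE, n = 3 per group; edgeR adjusted P = 0.014), and 0.28 without IR replicate 3. The call was lost without untreated replicate 1 (0.44) or untreated replicate 3 (0.44).

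SCD, the stearoyl-CoA desaturase, was at 916, 922 and 892 CPM in untreated and 820.2, 798 and 763 CPM in IR libraries. Every IR library was below every untreated one. This gave a log2 fold change of -0.20 ± 0.06 (SE, n = 3 per group; edgeR adjusted P = 0.032), and the call was lost without untreated replicate 1, 2 or 3 or without IR replicate 2, at log2 fold changes of -0.21 to -0.19. LPIN1, a phosphatidate phosphatase and SREBP target, was at 146, 146 and 133 CPM in untreated and 139.6, 132 and 129 CPM in IR libraries. Its groups overlapped, with a log2 fold change of -0.09 (95% confidence interval -0.24 to 0.06). ACACA, the acetyl-CoA carboxylase, had -0.11 (-0.25 to 0.03), ACLY, which supplies cytosolic acetyl-CoA, had 0.03 (-0.11 to 0.17), and ELOVL6, a fatty acid elongase, had 0.14 (-0.04 to 0.32).

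The fold changes were also estimated with the trend of each library's counts with GC content removed, and again with the effective transcript lengths of each library as an offset. The GC content of the 35 genes had a median of 49.0%, against 48.6% for all genes tested. With the GC trend removed 21 members were called higher and 1 lower, and the median was 0.23, while 11.7% of all genes were called higher and 12.6% lower. Of the 18 genes called higher without the correction, 15 were called with it. FASN, at 65.3% GC, went to 0.04, LSS to 0.07 and TM7SF2 to 0.13, and these 3 lost their calls. MSMO1 (0.58), CYP51A1 (0.36) and SOAT1 (0.40) became larger and stayed called. IDI1 (0.39), SC5D (0.20), INSIG2 (0.33), NPC1 (0.21), STARD4 (0.28) and ELOVL6 (0.23) became called, SCD lost its call (-0.14), and SREBF1 was called lower (-0.25).

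With the effective length offset 8 of the 35 genes were called higher and none lower, against 5.82% and 6.11% of all genes, while their median log2 fold change was 0.23. The 8 were HMGCS1, MVK, MVD, FDFT1, NSDHL, HSD17B7, EBP and NPC2. Effective lengths exceeded the annotated length, as a sequence bias correction allows, in 24.2% of transcripts in IR replicate 3 and in 27.5% to 29.1% in the other libraries, and the part of this in the lost calls was not tested. DHCR7 kept a log2 fold change of 0.36 but was not called (adjusted P = 0.17), while CYP51A1 went to 0.07 and SOAT1 to -0.0037. Among the 18 genes called higher, 9 were called whichever single library was left out, and 6, namely HMGCS1, MVK, MVD, NSDHL, HSD17B7 and NPC2, were called in each of the 14 alternative fits.

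**Figure D3:**
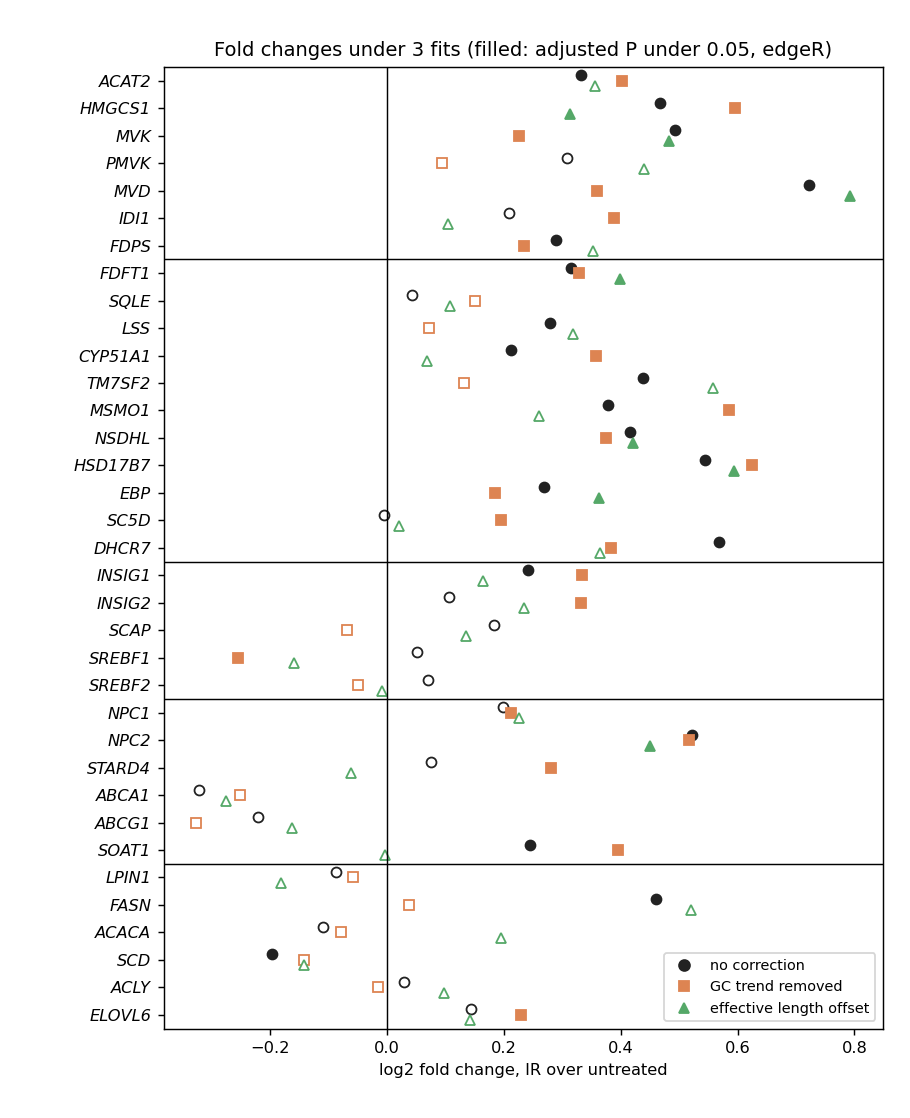
Log2 fold change of IR over untreated (horizontal axis) for the 35 genes under 3 edgeR fits: no correction (circles), GC trend removed (squares) and effective length offset (triangles); filled symbols passed an adjusted P of 0.05. HMGCS1, MVD and HSD17B7 are filled in all 3 fits, and FASN falls from 0.46 to 0.04 when the GC trend is removed.

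Levels between genes were compared per length, as TPM (the authors' transcript abundances, scaled by length within each library) summed over each gene. In untreated cells FDPS (291 ± 21.3 TPM, SD, n = 3), FDFT1 (274 ± 19.3) and HMGCS1 (262 ± 8.71) had the highest sums of the 35 genes. Their order is not separated by these spreads. The sums include transcripts not annotated as protein-coding. In untreated libraries the retained-intron transcript FDPS-215 was at 88.0, 95.5 and 87.0 TPM, and HMGCS1-204 was at 80.8, 76.6 and 74.8 TPM. The order of genes given here therefore holds for the sums and was not examined for coding transcripts alone. NPC2 (227 ± 7.29) and SQLE (221 ± 24.9) followed, again within their spread, and then SCD (196 ± 8.37) and ACLY (124 ± 3.44). SREBF2 stood at 71.3 ± 14.3 TPM and SREBF1 at 43.1 ± 8.89 TPM, with INSIG1 at 44.3 ± 3.97 TPM and INSIG2 at 20.5 ± 3.12 TPM. TM7SF2 was far lower at 4.15 ± 0.81 TPM, and ABCA1 (0.40 ± 0.05 TPM) and ABCG1 (0.33 ± 0.09 TPM) were near the floor. Several members have pseudogenes named after them that may share reads, with 8 for FDPS, 3 each for IDI1 and CYP51A1, 2 for HSD17B7 and 1 for SCD. Whether these are processed copies was not checked.

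**Figure D4:**
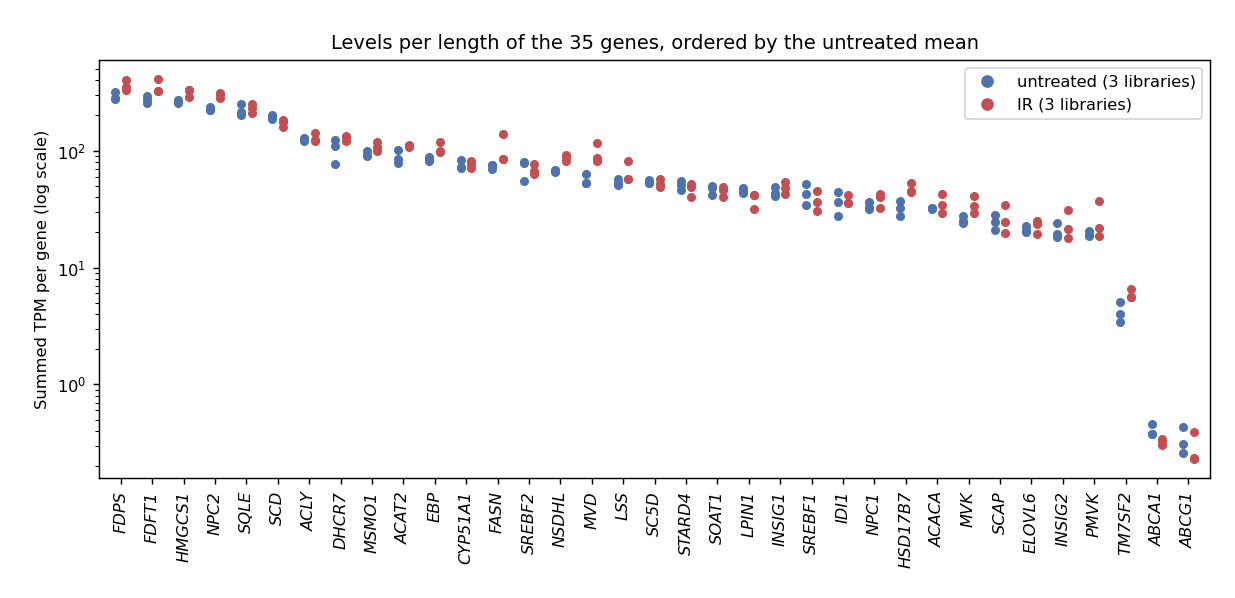
Summed TPM per gene (vertical axis, log scale) for the 35 genes, ordered by the untreated mean, with 3 untreated (blue) and 3 IR (red) libraries as points. Levels run from 291 TPM for FDPS to 0.33 TPM for ABCG1, and the group differences are small beside the differences between genes.

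Other genes of the same biology were read from lists of 61 symbols, of which 56 passed the filter. Of these 12 were called higher and 3 lower, with a median log2 fold change of 0.04, beside 15.5% higher and 14.5% lower among all genes tested. Sterol uptake and trafficking genes outside the 35 had 6 of 12 called higher and none lower, with a median log2 fold change of 0.35. With the GC trend removed 4 of 12 were called higher and the median was 0.16. With the effective length offset 1 of 12 was called higher and the median was 0.35. In those fits 11.7% and 5.82% of all genes were called higher. The other lists held few calls each and are read against the shares of the fit with no correction. The genes of SREBP processing had 1 of 6 called higher, the protein prenylation and other isoprenoid genes had 1 of 13 higher and 2 lower, and the oxysterol and LXR genes had none of 10 called. The further genes of fatty acid and glycerolipid synthesis had 4 of 15 called higher and 1 lower.

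Of the genes on these lists, 4 were called with a log2 fold change of at least 0.5. ACSS2, which makes cytosolic acetyl-CoA from acetate and is a known SREBP target, was at 29.6–31.7 CPM in untreated and 49.7–54.3 CPM in IR libraries, a log2 fold change of 0.75. LPIN3, a relative of LPIN1, rose from 16.5–20.3 to 27.5–31.1 CPM (0.69). AGPAT2, an acyltransferase of phosphatidate synthesis, rose from 32.2–36.6 to 48.7–66.3 CPM (0.68). AGPAT2 had 0.51 without IR replicate 3 and 0.24 with the GC trend removed. SOAT2, the second cholesterol esterification enzyme, had the largest fold change, 0.95, at only 0.67–1.82 CPM, and its call (adjusted P = 0.046) was held in 3 of the 14 alternative fits.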

How the data were processed

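RNA from U-2 OS cells, untreated or 24 h after 4 Gy of IR (3 libraries each), was sequenced on an Illumina platform. The labels name an mRNA kit and polyA RNA, whereas the study's methods name a total RNA kit, and this was left unresolved. Per the study's methods and the labels, the authors removed adaptors with fastp and pseudoaligned the reads with kallisto to GENCODE release 37 (GRCh38). The authors deposited estimated counts and TPM per transcript, with effective lengths; the estimated counts are not normalised, and reads shared by transcripts or gene copies were divided by the kallisto model. The deposited TPM values are scaled per length within each library.

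Here gene names for 158711 of 161171 transcripts were looked up by transcript ID in GENCODE release 44, and the estimated counts were summed over 21447 genes and rounded. Unmatched transcripts held 1.54% to 1.80% of the counts. Library totals are the range given with the results. The test was edgeR 4.0.16 (R 4.3.3, limma 3.58.1): filterByExpr, TMM scaling, a quasi-likelihood fit over all 6 libraries with no covariate, and Benjamini-Hochberg adjustment over 14323 genes, with a threshold of 0.05. CPM values are TMM-scaled. The SE was taken as the fold change divided by the square root of F. Heat map values used a pseudocount of 0.5 CPM. With 3 libraries against 3, an exact permutation test of a single gene cannot go below P = 0.1 (two-sided). The 14 alternatives were no filter, at least 10 counts in every library, DESeq2 size factors, the DESeq2 1.42.0 Wald test, a replicate block, a GC trend removed (lowess span 0.3), an effective length offset, protein-coding transcripts only, and each library left out. The fitting code was tested on simulated data.

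Genes named outside the 35 were those of the other pathway lists called with an absolute log2 fold change of at least 0.5, besides the checks of treatment and cell type. Values of every library are given for members called at that size and for 11 further members of central role. The members and lists were chosen with earlier results of these data known. Some pathway genes are not reported here. Motif letters were searched on both strands.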

Additional observations from a re-analysis of the deposited data

How the results depend on the processing

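No alternative reversed the direction of a called member except SOAT1, which was at -0.0037 with the effective length offset. Each of the 14 alternatives kept the median of all genes within 0.1 of 0, which the scaling in each fit largely sets. The number of members called higher stayed at 15 to 18 with no filter, at least 10 counts in every library and DESeq2 size factors. It also did so with the DESeq2 Wald test and the replicate block. Dividing CPM by mean effective length kept the order of the 35 genes by level. That order was bound to be kept, because these gene lengths were weighted by the same TPM values.

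The effective length offset gave 833 genes higher and 875 lower over all genes, 8 members higher and 0 lower, 3 mevalonate, 4 sterol, 0 SREBP control, 1 transport and 0 fatty acid genes higher, and 4 higher and 1 lower on the other lists. Protein-coding transcripts only gave 1277 genes higher, 11 members, 5 sterol, 0 SREBP control and 1 transport genes higher, and 6 on the other lists. In that fit FDPS (0.22), FDFT1 (0.23), TM7SF2 (0.72), CYP51A1 (0.20), EBP (0.20), INSIG1 (0.22) and SOAT1 (0.23) lost their calls. With the GC trend removed 2 SREBP control and 4 transport genes were higher. The DESeq2 Wald test called 5 genes of the other lists lower. The cause of these shifts was not tested.

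Leaving out 1 library in turn gave 1295 to 2114 genes higher and 1244 to 2284 lower, 10 to 16 members higher and 0 to 1 lower, 3 to 6 mevalonate, 5 to 9 sterol, 0 to 1 SREBP control, 1 to 2 transport and 0 to 1 fatty acid genes higher, and 7 to 13 higher and 1 to 6 lower on the other lists. The member median ran from 0.20 to 0.27.

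Directions turned for uncalled members. With the GC trend removed SC5D was 0.20 (called), SCAP -0.069, SREBF1 -0.25 (called), SREBF2 -0.050 and ACLY -0.016. With the length offset SC5D was 0.020, SREBF1 -0.16, SREBF2 -0.0083, STARD4 -0.061 and ACACA 0.19. With protein-coding transcripts only SC5D was 0.018, INSIG2 -0.15, SCAP -0.046 and SREBF1 -0.027. With 1 library left out SQLE reached -0.022 to 0.13, SC5D -0.064 to 0.071, SCAP -0.019 to 0.27, SREBF1 -0.092 to 0.15, SREBF2 -0.044 to 0.14, ABCG1 -0.46 to 0.040 and ACLY -0.011 to 0.049.

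No pairing by replicate number was seen: the correlations of same-numbered deviations were -0.02, 0.01 and -0.05. These values cannot show whether same-numbered libraries were cultured or processed together. The replicate block called 1727 genes higher and 1624 lower, 15 members higher and 0 lower, and 1 transport gene higher. Depth limits the genes with few counts: ABCG1 and ABCA1 had wide intervals.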

Other observations

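Sums per gene can hide how kallisto divided the reads among the transcripts of a gene. For HMGCS1 the coding transcript HMGCS1-202 was at 155, 160.5 and 176 TPM in untreated and 227, 211 and 260.0 TPM in IR libraries, whereas HMGCS1-204, annotated as a retained intron, was at 80.8, 76.6 and 74.8 TPM in untreated and 79.7, 57.4 and 48.3 TPM in IR libraries. The coding transcript was higher in every IR library, and the retained-intron transcript was not. With protein-coding transcripts only, the log2 fold change of HMGCS1 was 0.51, against 0.47 for the sum.

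For DHCR7, DHCR7-201 was at 31.5, 32.4 and 32.1 TPM in untreated and 34.3, 34.6 and 75.6 TPM in IR libraries. DHCR7-209 was at 51.4, 41.2 and 21.5 TPM in untreated and 39.9, 44.8 and 26.0 TPM in IR libraries. The split among transcripts thus differed in untreated replicate 3 and in IR replicate 3 from their partners, while the CPM sums of the gene kept the groups apart. For FASN, FASN-201 was at 32.2, 35.7 and 32.9 TPM in untreated and 42.8, 37.1 and 66.1 TPM in IR libraries, and FASN-204, annotated for nonsense-mediated decay, was at 33.7, 27.7 and 34.2 TPM in untreated and 35.9, 46.7 and 63.9 TPM in IR libraries. SQLE-206 was at 126, 104 and 155 TPM in untreated and 149.9, 149 and 117 TPM in IR libraries. These transcripts were chosen after their values were seen, and their differences were not tested.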
